A study of Mus musculus and Homo sapiens with 4 samples.

Results

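A set of 10 genes that encode prostate surface antigens and proteins secreted by prostate epithelium was examined in RNA sequencing of VCaP cells and of VCaP ERα cells. VCaP is a prostate cancer cell line, and the study describes VCaP ERα as VCaP cells that stably overexpress oestrogen receptor alpha (ERα). The genes were ACPP, CRISP3, MSMB, AZGP1, STEAP1, STEAP2, STEAP4, FOLH1, TRPM8 and PSCA, and they were found by their symbols among 25932 entries, each of which stands for a gene or a group of overlapping transcripts. Each of the 10 symbols stood on 1 entry, and 8 of these entries carried no other symbol. Both cultures were kept in DMEM with fetal bovine serum, and their RNA was depleted of ribosomal RNA before strand-specific libraries were made, which the labels call poly-A-. Whether oestrogen was added before RNA extraction is not given in the sources used here. The labels give neither a clone nor a vector control for these libraries, so ERα overexpression cannot be told apart from the culture or the library. The series also holds fibroblasts of wild-type and NEAT1 knockout (KO) mouse embryos, which appear only in the closing section.

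The luminal cells of the prostate secrete into seminal fluid and carry surface proteins that are rare in other tissues. The androgen receptor drives many of their genes, and several of the products are used as serum markers (ACPP), imaging targets (FOLH1) or antibody targets (STEAP1, PSCA). The secreted proteins here are ACPP, the prostatic acid phosphatase, which also has a membrane form, CRISP3, a cysteine-rich protein of seminal fluid, MSMB, a small abundant protein of seminal fluid that binds CRISP3, and AZGP1, a zinc-binding glycoprotein with an MHC class I-like fold. The surface proteins are STEAP1, STEAP2 and STEAP4, multi-pass membrane proteins of which STEAP2 and STEAP4 reduce iron and copper, FOLH1, also called PSMA, a carboxypeptidase that removes glutamate from folates, TRPM8, a cation channel opened by cold and menthol, and PSCA, a lipid-anchored protein of the LY6 family.

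The values are RPKM, reads relative to entry length and to mapped reads, so levels can be compared between genes. Each condition had 1 library. No difference therefore has a replicate check, and no test was made. The log2 ratio was taken as VCaP ERα over VCaP after 1 RPKM was added to both, which understates differences of low values. Where 2 values stand together without names, the VCaP value comes first. A log2 ratio above 2 was passed by 588 entries, or 2.27% of all, and 1701 entries, or 6.56%, lay below -2. Entries with any higher value in VCaP ERα made up 46.6%, and those with any lower value 41.2%. In VCaP 8757 entries were listed at 0, and in VCaP ERα 3607. A value of 0 in VCaP beside a low value in VCaP ERα was therefore common and is not particular to a gene. The median log2 ratio was 0 over all entries and -0.59 over the 9754 that reached 1 RPKM in each library. Centring on the latter median changed the numbers past the threshold to 1238 above and 868 below, and quantile normalization to 1003 and 997. ESR1, the overexpressed gene, was higher in VCaP ERα (209 RPKM) than in VCaP (15.7 RPKM).

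Prostate markers went against the label of the VCaP library. For the marker counts here, 2.27% of all entries lay above 2 and 6.56% below -2. Of 12 prostate luminal markers outside the 10 genes, 9 were above the threshold in VCaP ERα, among them KLK2 (0.0264 RPKM against 452 RPKM), HOXB13 (0.0479 RPKM against 54.6 RPKM) and ERG, the gene fused to TMPRSS2 in VCaP cells (0.0764 RPKM against 104 RPKM). FOXA1 was at 139 and 127 RPKM, and the keratins KRT8 and KRT18 were below -2. The summed level of the 12 markers was 2545 RPKM against 1604 RPKM. Most of the VCaP sum came from KRT8 (1708 RPKM against 41.5 RPKM) and KRT18 (673 RPKM against 46.9 RPKM), so the sum does not show the direction of the other markers. Of 14 luminal breast markers 5 were below -2 and 1, TBX3, was above 2, with a summed level of 2679 RPKM against 230 RPKM. GATA3 and TFF1 were among those below, whereas SCGB2A2 was listed at 0 and ANKRD30A had 0.00756 RPKM in VCaP. Of 7 basal markers 5 were below -2, with a summed level of 134 RPKM against 4.66 RPKM, and KRT14 was listed at 0 in VCaP. Stromal markers (8 genes) summed to 12.0 and 2.81 RPKM, blood and immune markers (7 genes) to 1.59 and 1.87 RPKM, and neuroendocrine markers (7 genes) to 24.5 and 16.5 RPKM. Of the 5 basal markers below -2, 3 were so after centring or quantile normalization, when TP63 and KRT15 lay within the threshold. The neuroendocrine markers had 2 above 2 and 1 below -2, and 4 above after centring. The numbers past the threshold among the prostate luminal markers were the same under all settings tried. Whether the library labelled VCaP came from VCaP cells was not tested, and the name VCaP below stands for the library that carries this label. The part of these differences in the results for the 10 genes was not tested, and with 1 library per condition no comparison can be made without the library labelled VCaP. In bulk RNA, fewer cells of a type and less RNA per cell cannot be told apart.

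Of the 10 genes, 7 had a log2 ratio above 2 (2.27% of all entries did), 1 was below -2 (6.56% of all entries) and 2 lay between. The genes had been proposed with earlier results of these libraries known. All those above the threshold also stand on a gene list that the study drew from the same libraries, so their direction is not independent evidence. The median log2 ratio of the 10 genes was 4.67. Their median level was 1.25 RPKM against 48.4 RPKM, where the medians of all entries were 0.512 and 0.818 RPKM. Together they held 55.1 RPKM in VCaP, or 0.0206% of the sum of all entries, and 1824 RPKM, or 0.926%, in VCaP ERα. At least 1 RPKM was reached by 5 of the genes in VCaP and by 9 in VCaP ERα, against 45.4% and 46.0% of all entries.

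**Figure D1:**
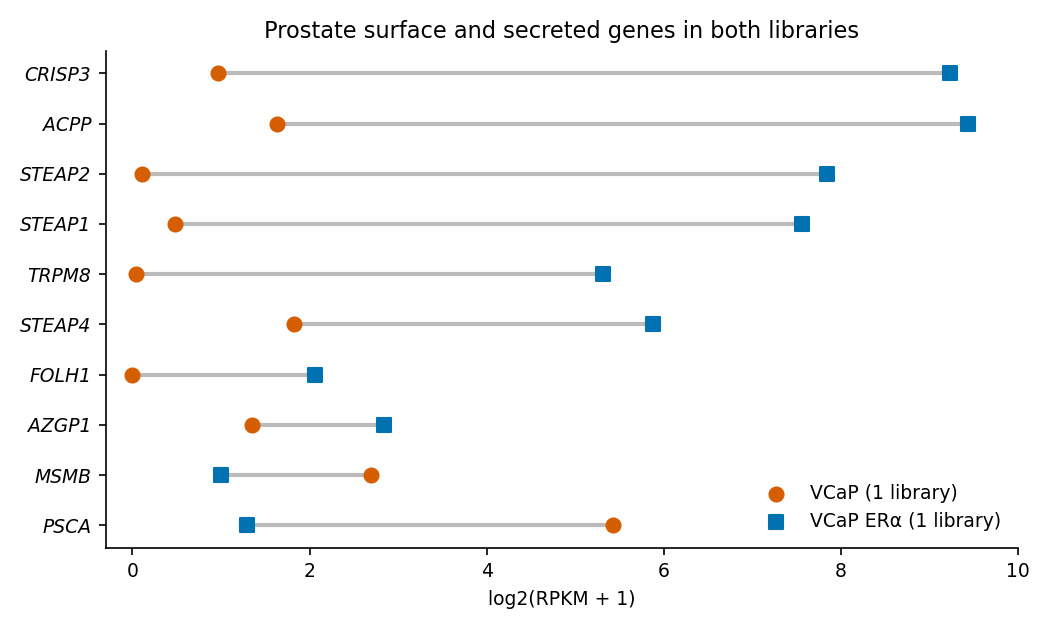
Level of each of the 10 genes as log2(RPKM + 1) in the VCaP library (circles) and the VCaP ERα library (squares), with 1 library per condition and a grey line joining both values. In 8 genes the VCaP ERα value lies to the right, and MSMB and PSCA show the opposite order.

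The order of the genes by level differed between the libraries. In VCaP, PSCA was highest, followed by MSMB, STEAP4, ACPP, AZGP1, CRISP3, STEAP1, STEAP2 and TRPM8, with FOLH1 listed at 0. In VCaP ERα, ACPP was highest, followed by CRISP3, STEAP2, STEAP1, STEAP4, TRPM8, AZGP1, FOLH1, PSCA and MSMB. PSCA and MSMB, the highest pair in VCaP, were thus the lowest pair in VCaP ERα. Without replicates no spread is known, and neighbours in either order cannot be said to differ.

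Among the secreted proteins, ACPP and CRISP3 were close to each other in both libraries. ACPP (chr3:133518902-133569831 in hg18 coordinates, as are all those below) had 2.11 RPKM in VCaP compared with 694 RPKM in VCaP ERα (log2 ratio 7.81). CRISP3 (chr6:49803054-49820060) had 0.950 RPKM and 603 RPKM, a log2 ratio of 8.28. In VCaP ERα they ranked 29 and 36 of the 25932 entries by level, while in VCaP they ranked 10067 and 11882. For ACPP the entry nearest in both libraries, by distance in log2(RPKM + 1), was CRISP3 (distance 0.70), and for CRISP3 it was LDHB, a subunit of lactate dehydrogenase (distance 0.57).

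AZGP1 and MSMB did not pass the threshold and went in opposite directions. AZGP1 (chr7:99402286-99411623) had 1.55 RPKM in VCaP compared with 6.18 RPKM in VCaP ERα (3.98-fold higher, log2 ratio 1.49). This log2 ratio lay below the threshold. It was 2.08 after centring on the median, 2.04 after quantile normalization and 2.25 when both libraries were scaled to the same sum. MSMB (chr10:51219559-51232598) had 5.46 RPKM in VCaP compared with 0.998 RPKM in VCaP ERα (log2 ratio -1.69). Its ratio was -2.34 with 0.1 RPKM added instead of 1 and -1.10 after centring. MSMB and CRISP3, whose proteins bind each other, thus had opposite directions in this pair of libraries.

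STEAP1, STEAP2 and STEAP4 were all above the threshold. STEAP2 (chr7:89634840-89704928), a metalloreductase, had 0.0782 RPKM in VCaP compared with 229 RPKM in VCaP ERα (log2 ratio 7.74). STEAP1 (chr7:89621625-89632077), which has no reductase domain of its own, had 0.392 RPKM and 189 RPKM, a log2 ratio of 7.09. STEAP4 (chr7:87743680-87774145), a metalloreductase known to be induced by tumour necrosis factor, had 2.53 RPKM and 58.0 RPKM, a log2 ratio of 4.06. STEAP4 had the highest level of these genes in VCaP and the lowest in VCaP ERα. The entry nearest to STEAP2 in both libraries was RPS4Y1, a ribosomal protein gene of the Y chromosome (0.0842 RPKM against 261 RPKM, distance 0.18), followed by STEAP1 (distance 0.46). What the value of this Y-linked gene means for the label of the VCaP library was not tested. STEAP1 had STEAP2 and PRAC nearest to it, and STEAP4 had CHPT1 and LCP1. Their remaining relative went the other way: STEAP3, a ferrireductase of red cell precursors on chromosome 2, had 5.35 RPKM in VCaP compared with 0.700 RPKM in VCaP ERα (log2 ratio -1.90). This ratio was -1.31 after centring, -2.20 with both libraries scaled to the same sum and -2.77 with 0.1 RPKM added.

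STEAP1 and STEAP2 are neighbours on chromosome 7 with 2762 bases between their entries, and STEAP4 lies 1847 kb from STEAP1. Entries between STEAP4 and STEAP1 stayed under 1 RPKM in both libraries. ZNF804B had 0.0212 and 0.0413 RPKM, MGC26647 was listed at 0 in both, and DPY19L2P4 had 0.0482 and 0.774 RPKM. Beyond STEAP2, C7orf63 had 0.207 RPKM in VCaP compared with 4.23 RPKM in VCaP ERα (log2 ratio 2.12). GTPBP10, the next entry, had 2.37 and 2.31 RPKM, a log2 ratio of -0.02. CLDN12, a tight junction claudin whose entry overlaps that of GTPBP10, had 6.54 and 32.9 RPKM, a log2 ratio of 2.17. Entries above the threshold in this stretch thus lay on both sides of an entry with nearly equal values.

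**Figure D2:**
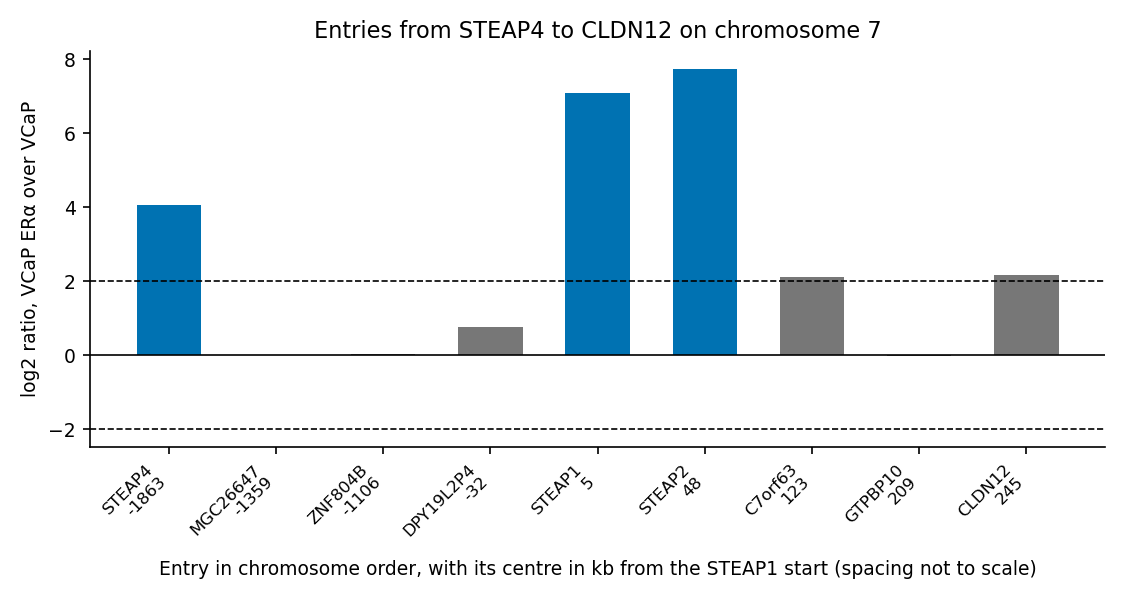
Log2 ratio (VCaP ERα over VCaP, 1 library each) of the entries from STEAP4 to CLDN12 on chromosome 7 in chromosome order, with the distance of each entry's centre from the STEAP1 start in kb and dashed lines at 2 and -2. STEAP4, STEAP1, STEAP2, C7orf63 and CLDN12 lie above 2, while GTPBP10 is at -0.02.

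The 5 nearest entries on each side were read for the other genes as well. Of 83 such entries around the 10 genes, with the genes themselves left out and each entry counted once, 2 were above the threshold (C7orf63 and CLDN12) and 2 below it, and the median log2 ratio was 0. Only 35 of the 83 reached 1 RPKM in either library. With 1 RPKM added, an entry under 1 RPKM in both cannot pass the threshold, so the median says little about those entries. The 10 neighbours of ACPP had log2 ratios between -1.02 and 1.67, those of TRPM8 between -1.49 and 0.68 and those of FOLH1, mostly olfactory receptor genes, between 0 and 0.57. At least 1 RPKM in either library was reached by 5 of the neighbours of ACPP, 3 of those of TRPM8 and 0 of those of FOLH1. The entries below -2 were C6orf141 near CRISP3 (26.5 RPKM against 0.110 RPKM) and C8orf55 near PSCA (33.2 RPKM against 6.57 RPKM), whose log2 ratio of -2.18 was -1.59 after centring. The level of CRISP3 was not shared by the other CRISP genes beside it. CRISP2, whose entry ends 13.8 kb from that of CRISP3, was listed at 0 in VCaP and had 0.365 RPKM in VCaP ERα, and CRISP1, 89.9 kb away on the other side, was listed at 0 and had 0.0829 RPKM.

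FOLH1 passed the threshold by little. Its entry (chr11:49124763-49186798) also carries the symbols PSMAL and FGCP, so reads of FOLH1 and of its near-identical copy PSMAL cannot be told apart there. The entry was listed at 0 in VCaP and had 3.16 RPKM in VCaP ERα (log2 ratio 2.06), just above the threshold. A separate PSMAL entry (chr11:89032113-89071534) was listed at 0 in VCaP and had 0.240 RPKM in VCaP ERα. With 0.1 RPKM added instead of 1 the log2 ratio of the FOLH1 entry was 5.03, and no fold difference is given against a value of 0. In VCaP ERα FOLH1 ranked 6799 of all entries by level, the lowest rank of the 7 genes above the threshold.

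TRPM8 (chr2:234490782-234592905, entry shared with the name LTRPC6) had 0.0307 RPKM in VCaP compared with 38.8 RPKM in VCaP ERα (log2 ratio 5.27). It ranked 774 by level in VCaP ERα. The entries nearest to it in both libraries were TMEM98 (0 and 38.7 RPKM) and MUM1L1 (0.0693 and 37.6 RPKM).

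PSCA was the exception among the surface antigens. PSCA (chr8:143758877-143761145) had 42.0 RPKM in VCaP compared with 1.44 RPKM in VCaP ERα (29.1-fold lower, log2 ratio -4.14). In VCaP it ranked 1204 by level, and counted from the lowest log2 ratio it ranked 199 of all entries. An entry that overlaps it, CR590598, had 0.966 and 0.682 RPKM. How reads in the overlap were assigned is not given in the sources used here. The entry nearest to PSCA in both libraries was SLPI, a secreted protease inhibitor, with 42.0 and 1.44 RPKM.

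**Figure D3:**
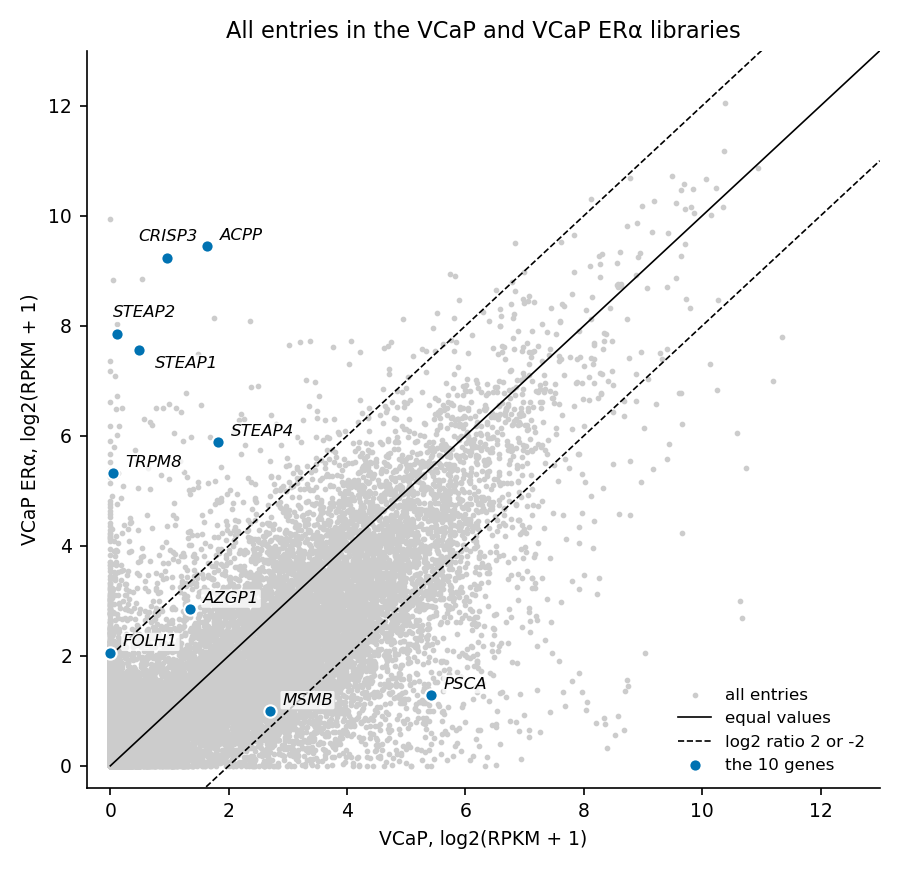
Each grey point is 1 of the 25932 entries, with its level as log2(RPKM + 1) in VCaP on the x axis and in VCaP ERα on the y axis; the 10 genes are blue, the solid line marks equal values and the dashed lines log2 ratios of 2 and -2. ACPP, CRISP3, STEAP1 and STEAP2 lie far above the upper dashed line, FOLH1 lies on its edge, and PSCA lies below the lower line.

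Genes related to each of the 10 by family or by name were read to see whether they differed as well. Of 8 CRISP and related CAP-domain genes none passed the threshold in either direction (median log2 ratio 0.47). With both libraries scaled to the same sum 2 were above it and 1 below, with CRISPLD1 at 2.97 and CRISPLD2 at -2.45, and with 0.1 RPKM added 4 were above and 1 below. In the values as deposited the highest level in VCaP ERα was 1.98 RPKM, of GLIPR2. The 6 other acid phosphatases were grouped by name and not by protein family. None of them passed the threshold (median -0.14, but 0.45 after centring and 0.11 with equal sums). They include ACP1 (20.9 RPKM against 22.1 RPKM) and the lysosomal ACP2 (9.96 RPKM against 2.97 RPKM). ACPL2 had 0.519 and 3.94 RPKM, a log2 ratio of 1.70 that was 2.29 after centring, 2.84 with equal sums and 2.71 with 0.1 RPKM added. None of the 7 other TRPM channels passed it (median 0.06), while 1 did after centring or quantile normalization and 2 with equal sums or 0.1 RPKM added. The widely expressed TRPM7 had 19.8 RPKM in VCaP compared with 5.16 RPKM in VCaP ERα, and TRPM2, opened by ADP-ribose, had 0.00743 and 2.77 RPKM (log2 ratio 1.90, and 2.49 after centring).

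The relatives of FOLH1 were mostly higher in VCaP ERα, and those of PSCA mixed. Of 6 relatives of FOLH1 measured on their own entries, 5 were higher in VCaP ERα, as were 46.6% of all entries. Among these 5, PSMAL, NAALAD2, NAALADL1 and TFR2 were at or near 0 in VCaP (0.0178 RPKM for TFR2), which left little room for a lower value. The carboxypeptidase NAALAD2 was the 1 that passed the threshold, listed at 0 in VCaP with 3.38 RPKM in VCaP ERα. NAALADL1 had 0.00352 and 2.81 RPKM, a log2 ratio of 1.93 that was 2.52 after centring. The median log2 ratio of these relatives was 1.24, and 3 were above the threshold with equal sums or 0.1 RPKM added. TFRC, the transferrin receptor, was the relative with a lower value (65.5 RPKM against 30.4 RPKM). Of 11 LY6-family genes, 4 were below -2 as PSCA was (6.56% of all entries were). These included LYPD1 (60.1 RPKM against 0.205 RPKM), LY6E (251 RPKM against 23.3 RPKM) and LYPD3 (27.5 RPKM against 1.73 RPKM). The other was CD59, a complement inhibitor (58.1 RPKM against 9.79 RPKM). The median of the LY6 family was -0.96, or -0.37 after centring. The log2 ratio of CD59 was -2.45, or -1.86 after centring. With equal sums 2 members of this family, LYNX1 and LYPD2, were above 2. LY6K, the next entry to PSCA on one side, was listed at 0 in VCaP and had 0.344 RPKM in VCaP ERα. Of 4 MHC class I-like relatives of AZGP1, FCGRT, the neonatal Fc receptor, was above the threshold (0.0480 RPKM against 13.9 RPKM) and MR1 below it (10.8 RPKM against 0.618 RPKM).

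Further prostate products outside the 10 genes were divided. Of 17 entries of other secreted products 6 were above the threshold (2.27% of all entries were): NPY, KLK2, KLK3, KLK4, SPON2 and ORM2. KLK11 was below -2 (6.56% of all entries were), with 21.9 RPKM in VCaP compared with 0.653 RPKM in VCaP ERα. The seminal fluid proteins SEMG1 and SEMG2, on a shared entry, were listed at 0 in VCaP with 0.0657 RPKM in VCaP ERα, and TGM4, the prostate transglutaminase, had 0.000412 and 0.355 RPKM. The median log2 ratio of this list was 0.62, and 8 entries were above the threshold with equal sums and 9 with 0.1 RPKM added.

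Of 18 other surface proteins 6 were above the threshold (2.27% of all entries) and 4 below it (6.56%). Their median log2 ratio was 0.12. Those above were SLC45A3 (prostein, 1.81 RPKM against 179 RPKM), the tetraspanin TSPAN8, TMEFF2, the protease TMPRSS2, the bombesin receptor GRPR and the protease HPN. Those below included CEACAM6 (329 RPKM against 0.695 RPKM), CEACAM5 (119 RPKM against 0.559 RPKM) and PVRL4, or nectin-4 (11.6 RPKM against 1.04 RPKM). EPCAM, a general epithelial antigen, had 50.7 and 82.6 RPKM.

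Genes that handle the substrates of STEAP2, STEAP4 and FOLH1 did not share their direction. The median log2 ratio of 16 iron and copper genes was -0.92, or -0.33 after centring and -0.34 after quantile normalization. None of them was above the threshold (2.27% of all entries were), and 3 were below it (6.56% of all entries were). These were the siderophore binder LCN2 (147 RPKM against 1.61 RPKM), the ferritin heavy chain FTH1 (812 RPKM against 73.4 RPKM) and the copper transporter SLC31A2 (35.5 RPKM against 2.73 RPKM). The iron exporter SLC40A1 had the highest log2 ratio of this list, 1.83 (0.115 RPKM against 2.97 RPKM), which was 2.42 after centring. With equal sums or 0.1 RPKM added, 1 gene of this list was above the threshold and 5 were below it. Of 12 folate genes none passed the threshold in either direction (2 were below it with 0.1 RPKM added), and their median log2 ratio was -0.78, near that of -0.59 for entries expressed in both libraries. Among them the folate transporter SLC19A1 had 5.88 and 5.20 RPKM, and GGH, which like FOLH1 removes glutamates from folates, had 8.96 and 9.34 RPKM.

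**Figure D4:**
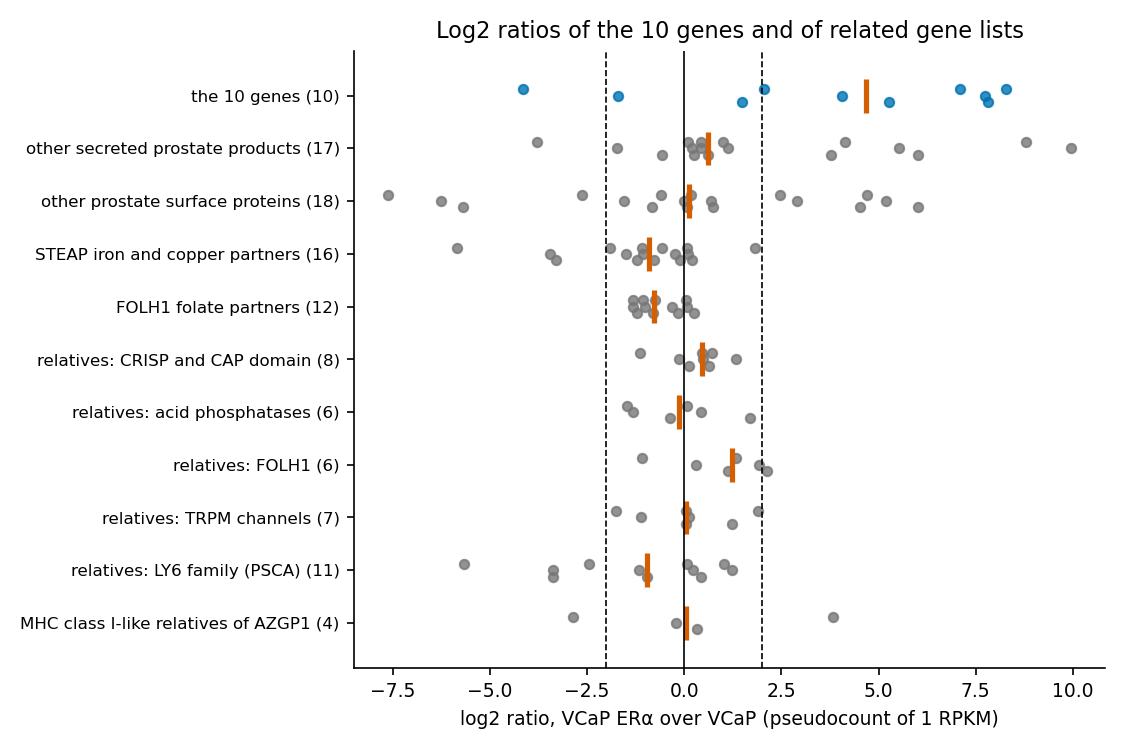
Log2 ratios (VCaP ERα over VCaP, 1 library each) of the 10 genes (blue) and of the genes of each related list (grey), with the number of entries in brackets, orange bars at each median and dashed lines at 2 and -2. The median of the 10 genes is 4.67, and the medians of the iron and copper list and of the folate list are -0.92 and -0.78. After centring, which is not drawn, these medians are 5.26, -0.33 and -0.19.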

How the data were processed

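RNA sequencing of VCaP and VCaP ERα cells was used, with 1 library each. The authors deposited RPKM values, scaled for entry length and mapped reads. No further scaling is stated. The submitters' processing notes name CASAVA 1.8 and the builds hg18 and mm10. The counting tool and its strand setting are not given in the sources used here. The entry of highest mean RPKM stood for a symbol, and log2 ratios were taken after 1 RPKM was added. The named genes were the 10 genes, ESR1, genes of related and marker lists past the threshold of 2 or at the ends of a list, the 5 nearest entries on each side, and the nearest entries by pattern. Other genes that did not pass the threshold (among them EPCAM, GGH, TGM4 and ACP1) were named after their values were seen. The members and lists were chosen with earlier results of these data known. Alternatives were another pseudocount, a filter, scalings and other ways to pick an entry.

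The read totals are unknown, so no counting interval or floor was computed. For 2146 low entries (over 0 and under 0.5 RPKM in each library), the ratios of VCaP ERα to VCaP that recurred most were 0.974 (38 entries) and 0.764 (37 entries), which lie 0.35 apart on the log2 scale. Where whole reads were counted, such ratios could reflect the worth of a read, so relative depth is not settled. The scripts were tested on simulated data. The values of 1 listed gene are not reported here. No human sequence is printed, as the reference used here was that of the mouse. Computation used pandas 2.3.3 and numpy 2.4.6 under Python 3.11.15, with matplotlib 3.10.9 for plots.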

Additional observations from a re-analysis of the deposited data

Results flagged for a closer look

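The mouse fibroblast libraries lie outside the comparison of the VCaP cells. The counterparts of 3 of the 10 genes reached 1 RPKM in NEAT1 KO fibroblasts and were higher there than in wild type, with 1 library per genotype and no test. Steap1 was at 10.8 RPKM in KO fibroblasts against 8.16 RPKM in wild type (log2 ratio 0.36). Steap2 was at 5.47 RPKM against 4.84 RPKM (log2 ratio 0.15). Steap4 was at 1.502 RPKM against 0.282 RPKM, which with 1 RPKM added is a log2 ratio of 0.96. Of 23329 fibroblast entries 10888 reached 1 RPKM in each library, and the median log2 ratio of these was -0.06. The share of all entries that reached 1 RPKM in KO and were higher there was not computed.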

How the results depend on the processing

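The number of the 10 genes above the threshold was 7 in the reported comparison. It was 8, with AZGP1 added, after centring on the median of expressed entries, after quantile normalization and with both libraries scaled to the same sum, and 5 when entries with a further symbol, those of FOLH1 and TRPM8, were left out. The number below the threshold was 1, and 2 with 0.1 RPKM added instead of 1, when MSMB passed it. The median log2 ratio of the 10 genes, 4.67 as reported, was 6.62 with 0.1 RPKM added, 5.26 after centring, 6.15 after scaling to the same sum, 4.96 after quantile normalization and 5.58 without the shared entries. None of the 10 genes changed direction under the settings tried. Requiring 1 RPKM in 1 library, or summing all entries of a symbol, changed none of these counts. That filter left 13954 entries, and the shares of all entries past the threshold became 4.21% above and 12.2% below. Over all entries, 588 above and 1701 below became 4238 and 2958 with 0.1 RPKM added, and 3107 and 1810 with both libraries scaled to the same sum. In the latter setting the added 1 also weighed less, so its changes cannot be credited to the scaling alone. The recurring ratios of low values differ by 0.35 on the log2 scale, more than the distance of FOLH1 from the threshold. No library could be left out, and no paired analysis was possible because each condition had 1 library.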

Other observations

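Counterparts of all 10 genes were found in the fibroblast libraries. Crisp3, Msmb, Azgp1 and Psca were listed at 0 in both. Acpp was at 0.337 RPKM in NEAT1 KO and 0.0747 RPKM in wild type. Folh1 and Trpm8 had 0.00745 and 0.0400 RPKM in wild type and were listed at 0 in KO. The STEAP genes were therefore the members of the set with at least 1 RPKM in a fibroblast library.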
